A study of Mus musculus with 24 samples.

Results

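The immediate early genes Fos, Fosb, Fosl2, Jun, Junb, Jund, Egr1, Egr2, Egr3 and Nr4a1 were followed in mature B cells that lacked the transcription factors PU.1 or SpiB or both. The members were taken by symbol, as the 10 rows of that name among the 27179 entries of the count tables. RNA-seq was run on lymph node B cells of C57BL/6 mice, aged between 6 and 20 weeks, that were either naive or had been cultured for 48 h in CD40L (50 ng/ml) + IL-4 (10 ng/ml) or in LPS (20 µg/ml) + IL-4. Each of the 12 groups held 2 libraries, which the study's methods describe as biological replicates, so the series has 24 libraries. Control mice carried the Cre transgene alone (Cd23T/+). PU.1 cKO mice (cKO) carried in addition floxed Spi1, the gene of PU.1 (Spi1fl/fl Cd23T/+), and PU.1 SpiB DKO mice (DKO) also lacked Spib (Spi1fl/fl Cd23T/+ Spib-/-). SpiB KO mice were Spi1fl/fl Cd23+/+ Spib-/-, so they carried the floxed allele without Cre. They thus differ from control in Cre and the floxed allele as well as in Spib. From DKO they differ in Cre as well as in the deletion of Spi1. In comparisons with SpiB KO, and in the interactions, these differences cannot be told apart. Cre was driven by the regulatory sequences of Cd23 (Fcer2a) and is active from the transitional B cell stage, so Spi1 was intact in earlier cells and outside this lineage. The B cells were purified by negative selection, and per the supplement of the study the cells taken for RNA-seq, naive or cultured, were sorted by a gate negative for CD3 and CD138 and positive for B220. By the read coverage that the study shows, the floxed exon of Spi1 was partly kept in naive DKO cells, while it was deleted in naive cKO cells and in the cultured cells of both mutants. The naive DKO group is thus no full loss of PU.1, and it differs from the cultured DKO groups in this as well as in stage.

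Immediate early genes are switched on within minutes of a stimulus by transcription factors that are already present in the cell, with no need for new protein. FOS proteins (Fos, Fosb, Fosl2) pair with JUN proteins (Jun, Junb, Jund) to form AP-1, which binds DNA through a leucine zipper and basic region, whereas Egr1, Egr2 and Egr3 are zinc finger factors and Nr4a1 (Nur77) is an orphan nuclear receptor. In B cells, ligation of the antigen receptor, CD40 or Toll-like receptors induces them through the ERK, JNK and p38 kinases and calcium, and most of their mRNAs decay quickly. They are also induced by handling of the cells, such as tissue dissociation and warming. PU.1 and SpiB are related ETS factors that bind the same DNA motif, and the design asks what each of them contributes by removing one or both before and after stimulation.

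For 8 of the 10 members, 12 promoter windows of the RefSeq table of build GRCm38.p6 were used, and none for Egr1 and Egr3. The 150 bases before the annotated start of 6 members are shown, because these genes carry many of the changes described in the following paragraphs and because kinase and calcium signals reach such genes through sites close to the start. Capitals mark matches on either strand to the core TGACG of the cyclic AMP response element (CRE), to the octamer TGACNTCA that CREB and AP-1 bind, to the CArG box of serum response factor, to the EGR site GCGNGGGCG or to AGGAAGT, an ETS site of the kind PU.1 binds. A classical AP-1 site, TGANTCA, had no match in these 12 windows. The CRE core TGACG is contained in TGACNTCA where N is G. The Egr2 stretch lies before 1 of its 5 annotated starts. Of the members without a sequence here, Fosl2 lies at chr5:32136472-32157840, Jund at chr8:70697739-70700616 and Egr3 at chr14:70077317-70082613 (GRCm38).
Fos (chr12:85473740-85473889, plus strand): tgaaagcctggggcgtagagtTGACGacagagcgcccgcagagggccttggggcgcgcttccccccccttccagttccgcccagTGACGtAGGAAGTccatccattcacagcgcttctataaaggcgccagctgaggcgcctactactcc
Fosb (chr7:19310046-19310195, minus strand): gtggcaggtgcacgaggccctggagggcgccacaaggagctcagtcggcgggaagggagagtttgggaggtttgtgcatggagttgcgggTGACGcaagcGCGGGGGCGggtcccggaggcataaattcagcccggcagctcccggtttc
Jun (chr4:95052223-95052372, minus strand): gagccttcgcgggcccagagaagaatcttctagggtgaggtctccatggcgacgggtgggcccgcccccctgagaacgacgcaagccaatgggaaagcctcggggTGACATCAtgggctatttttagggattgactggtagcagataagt
Junb (chr8:84978749-84978898, minus strand): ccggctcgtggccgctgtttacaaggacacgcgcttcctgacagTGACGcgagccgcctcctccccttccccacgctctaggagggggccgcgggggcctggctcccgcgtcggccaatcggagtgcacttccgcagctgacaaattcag
Egr2 (chr10:67537719-67537868, plus strand): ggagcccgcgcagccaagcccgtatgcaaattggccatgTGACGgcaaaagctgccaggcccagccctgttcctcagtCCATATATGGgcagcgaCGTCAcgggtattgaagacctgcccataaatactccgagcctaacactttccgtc
Nr4a1 (chr15:101266696-101266845, plus strand): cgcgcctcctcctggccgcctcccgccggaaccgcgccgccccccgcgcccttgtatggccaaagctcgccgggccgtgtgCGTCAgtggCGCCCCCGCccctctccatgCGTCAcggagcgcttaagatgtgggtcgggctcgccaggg

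Counted from the start, the CRE cores of Fos began at -129 and -66 and its AGGAAGT at -60. In Fosb the CRE core began at -60 and the EGR site at -50. Jun had no TGACG but the octamer at -45, and Junb had 1 CRE core at -106. Egr2 held a CArG box at -72 between CRE cores at -111 and -55. Nr4a1 held CRE cores at -69 and -40 around an EGR site at -60, and CRE cores at -233 and -213 further upstream. Of the members with a window but no sequence here, Fosl2 held an EGR site at -79 and Jund no match to any of the motifs. Of all 32851 promoter windows, searched over the 250 bases before the start, 17.8% held the CRE core, 7.49% the octamer, 1.47% a CArG box, 4.70% the EGR site, 6.75% the AP-1 site and 7.69% AGGAAGT. These are matches of letters and not evidence of binding. Sites outside the 250 bases were not searched, so the lack of a match does not mean that a gene lacks the site.

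**Figure D1:**
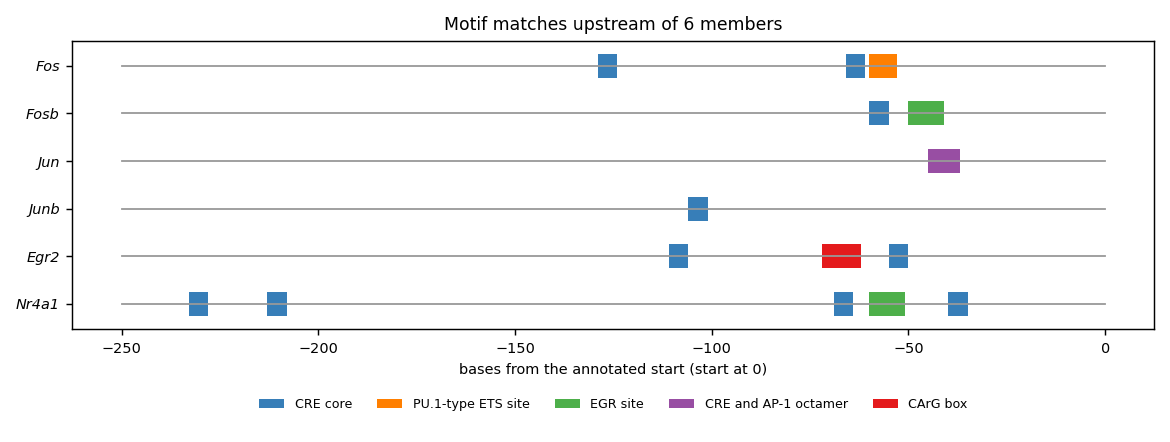
Positions of motif matches in the 250 bases before the annotated start of 6 members (horizontal axis, bases from the start, with the start at 0). Coloured boxes are matches on either strand, one colour per motif. CRE cores were found upstream of 5 of the 6 genes shown, or 5 of the 8 members whose windows were used, and Jun held the octamer at -45.

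Library totals ran from 14231188 to 18194629 counts in naive cells, from 9598674 to 61640683 in CD40L + IL-4 and from 22757630 to 73658850 in LPS + IL-4, and the 10 members took between 0.147% and 0.258% of the counts of a library. Levels are given in CPM, the counts of a gene scaled to the library total with TMM factors over the 24 libraries, as values of libraries 1 and 2 of each group. Spib was at 1416 to 1601 CPM in naive control cells and at 85.4 to 107 CPM in naive SpiB KO and DKO cells. Spi1 was at 169 to 182 CPM in naive control, at 57.0 to 63.6 in cKO and at 108 to 118 in DKO, and in LPS + IL-4 at 60.0 to 69.1 in control, 39.5 to 42.5 in cKO and 54.8 to 58.8 in DKO. In CD40L + IL-4 it was at 81.9 to 105 in control, 34.8 to 46.0 in cKO and 25.1 to 31.7 in DKO. In naive and LPS + IL-4 cells the double mutant thus held more Spi1 mRNA than cKO. A count over the whole gene does not separate transcripts that lack the floxed exon, so the counts used here do not show how much of this mRNA was intact. Fcer2a, whose sequences drive Cre, was at 1432 to 1541 CPM in naive control and at 161 to 211 in naive DKO cells. All 10 B cell markers were detected in every library. A gene was called changed at a Benjamini-Hochberg adjusted p under 0.15 and a fold change over 1.5 by the quasi-likelihood test of edgeR, both limits being those of the study's methods. For a single gene, 2 libraries against 2 could not go below an exact permutation p of 0.333, so the test pools the spread over genes. Where a difference of effects or an interaction was tested, the adjusted p alone decided. Changes are given as log2 fold changes ± SE.

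In control cells, Fos, Fosb, Egr1, Egr3 and Nr4a1 were higher in naive cells than in either culture. On the deposited scale per length (log2 RPKM, mean of 2 libraries), Jund ranked first in naive control cells at 8.68, followed by Junb at 7.43, Egr3 at 5.96, Fos at 5.38, Egr1 at 4.87, Nr4a1 at 4.73, Jun at 4.58, Fosb at 2.57, Egr2 at 2.04 and Fosl2 at -2.55. The 2 control libraries of Fos lay at 4.29 and 6.48, so its place against Egr3, Egr1, Nr4a1 and Jun was not separated from the spread, and the ranges of Egr1, Nr4a1 and Jun, and those of Fosb and Egr2, overlapped each other as well. After CD40L + IL-4 the order was Jund (8.93), Junb (5.59), Jun (4.63), Egr3 (3.70), Egr2 (3.61), Egr1 (3.29), Nr4a1 (0.61), Fos (-0.22), Fosl2 (-1.64) and Fosb (-3.21), with overlapping libraries among Egr1, Egr2 and Egr3 and between Nr4a1 and Fos. After LPS + IL-4, in values that were normalized apart from the other stages, it was Jund (8.74), Junb (7.04), Jun (3.76), Egr3 (3.09), Egr1 (2.76), Egr2 (1.44), Nr4a1 (0.84), Fos (-0.99) and Fosl2 (-2.25), and Fosb had no value in this table.

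Fos and Fosb fell further than any other member. Fos was at 198 and 40.96 CPM in naive control cells, 3.13 and 1.13 after CD40L + IL-4 and 0.995 and 0.782 after LPS + IL-4, with no overlap between naive and cultured libraries. Its log2 fold change against naive was -5.76 ± 0.89 (adjusted p = 1.98e-05) in CD40L + IL-4 and -7.11 ± 0.90 (adjusted p = 8.92e-07) in LPS + IL-4. Fosb was at 28.7 and 16.4 CPM in naive cells, 0.339 and 0.512 in CD40L + IL-4 and 0.0415 and 0.160 in LPS + IL-4, where the control libraries held 1 and 9 reads. Its changes were -5.74 ± 0.58 (adjusted p = 9.79e-08) and -7.48 ± 0.58 (adjusted p = 9.59e-10). Fosl2 (Fra-2), the FOS protein without a strong transactivation domain, was at 1.07 and 0.669 CPM in naive cells, 2.29 and 1.64 in CD40L + IL-4 and 1.16 and 0.942 in LPS + IL-4. It was higher in CD40L + IL-4 than in naive cells, by 1.19 ± 0.56 (adjusted p = 0.0793). These control libraries held 14 and 9 reads of it in naive cells and 27 and 16 in CD40L + IL-4. The call was lost without control library 1 of CD40L + IL-4, at 0.92, or naive control library 2, at 0.89.

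The JUN genes differed among themselves. Jund, the JUN gene that is expressed in resting cells, was at 1382 and 1291 CPM in naive cells, 1163 and 1373 in CD40L + IL-4 and 1203 and 1208 in LPS + IL-4, and was called in none of the 3 stage comparisons. Junb, a JUN protein that can oppose Jun, was at 440.3 and 251 CPM, 98.9 and 84.4 and 224 and 260.5 in the same order. It was lower in CD40L + IL-4 than in naive cells, at -1.91 ± 0.19 (adjusted p = 6.3e-08), and higher in LPS + IL-4 than in CD40L + IL-4, by 1.40 ± 0.18 (adjusted p = 5.6e-06). Against naive cells its value in LPS + IL-4 was -0.51 ± 0.18 (adjusted p = 0.0158), short of the fold limit. Jun was at 109 and 53.8 CPM, 75.5 and 88.5 and 44.3 and 39.3, and it was called lower in LPS + IL-4 against both other stages, at -0.97 ± 0.24 and -0.97 ± 0.24.

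Nr4a1 was at 72.04 and 58.5 CPM in naive control cells, 3.56 and 4.51 in CD40L + IL-4 and 4.52 and 3.50 in LPS + IL-4, and fell by 4.02 ± 0.32 (adjusted p = 4.28e-09) and 4.04 ± 0.30 (adjusted p = 5.87e-10) on the log2 scale. Egr3 was at 101 and 78.1 CPM, 28.7 and 13.02 and 11.7 and 10.5, and Egr1 at 124 and 65.6 CPM, 44.6 and 21.6 and 21.6 and 17.8. Both fell in each culture, Egr3 with log2 fold changes of -2.09 and -3.01 and Egr1 with -1.51 and -2.27. Egr2 went the other way in one culture. It was at 15.5 and 8.55 CPM in naive cells, 43.8 and 31.6 in CD40L + IL-4 and 7.34 and 7.47 in LPS + IL-4, a change of 1.65 ± 0.24 (adjusted p = 9.69e-06) and of -0.70 ± 0.24 (adjusted p = 0.0147). In all, 8 of the 10 members were called in CD40L + IL-4 against naive control cells (2 higher, 6 lower), where 48.8% of the 13684 genes tested were called, 7 (all lower) in LPS + IL-4 against naive, where 63.9% were called, and 7 (1 higher, 6 lower) between the cultures, where 41.2% were called. The median log2 fold change of the members was -1.71, -1.62 and -0.93, and that of all genes tested was 0.00, 0.01 and 0.00. In the comparison of the cultures, 4 members were called at an adjusted p under 0.05, and 3 were called without control library 1 of CD40L + IL-4. Without naive control library 1, Jun was at -0.37 (adjusted p = 0.145) and Egr2 at -0.21 (adjusted p = 0.501) in LPS + IL-4 against naive, and both calls were lost. In these bulk libraries, fewer cells that express a gene and less mRNA per cell cannot be told apart.

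**Figure D2:**
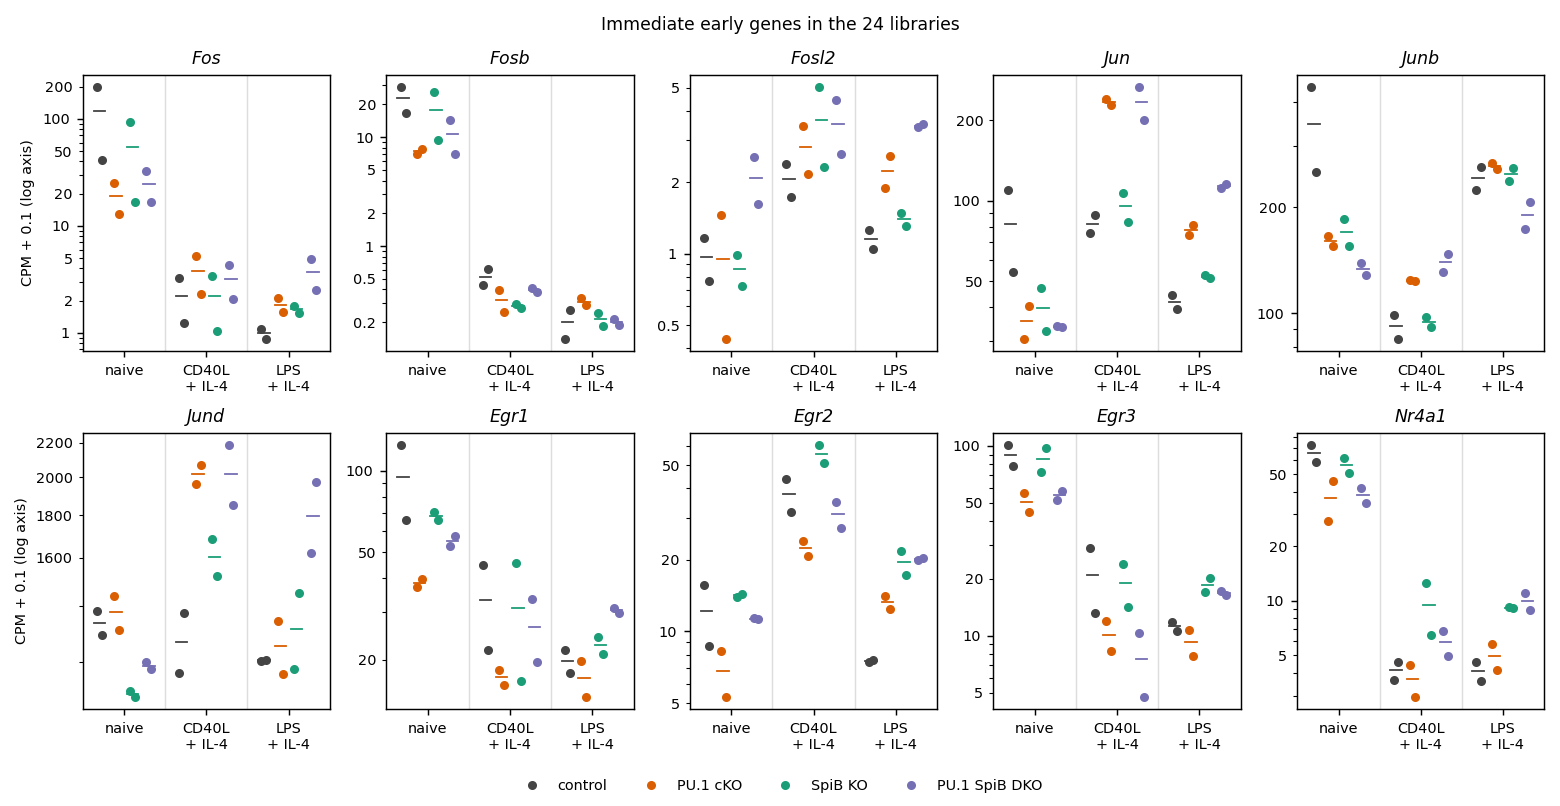
CPM + 0.1 of each member (log axis, a separate range in each panel) in the 24 libraries, by stage and genotype. Points are libraries, drawn with library 1 to the left of library 2, and bars are the means of 2. Every naive library of Fos, Fosb and Nr4a1 lies above every cultured library, and the naive control library 1 stands above the other naive libraries for 8 of the 10 genes.

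In naive B cells most of the members were lower in cKO and in DKO, of which DKO kept part of the floxed Spi1 exon. In DKO cells 7 of 10 members were called, all lower, where 21.2% of the 12500 genes tested were called. In cKO cells 8 of 10 were called, all lower, against 10.7% of all genes, and in SpiB KO cells 2, both lower, against 9.62%. The median log2 fold change of the members was -0.77, -0.98 and -0.32, and that of all genes tested 0.00, -0.01 and 0.01. These 3 comparisons share the control libraries.

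Fos was at 198 and 40.96 CPM in control, against 25.1 and 12.8 in cKO, with 92.6 and 16.5 in SpiB KO and 32.3 and 16.5 in DKO. Library 1 was above library 2 in every genotype, and the control libraries differed by 4.83-fold, yet both lay above all 4 libraries of cKO and DKO. The log2 fold change was -2.64 ± 0.84 (adjusted p = 0.0968) in cKO, -1.12 ± 0.79 (adjusted p = 0.493) in SpiB KO and -2.26 ± 0.83 (adjusted p = 0.0842) in DKO. Fosb was at 28.7 and 16.4 CPM in control, against 6.94 and 7.65 in cKO, with 25.9 and 9.36 in SpiB KO and 14.3 and 6.86 in DKO, also with both control libraries above all 4 of cKO and DKO. It was lower in cKO, at -1.63 ± 0.49 (adjusted p = 0.0791), and in DKO, at -1.08 ± 0.47 (adjusted p = 0.139). Fosl2 stayed between 0.338 and 2.46 CPM and was called in no naive comparison.

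Jun was at 109 and 53.8 CPM in control, against 30.4 and 40.3 in cKO, with 47.02 and 32.4 in SpiB KO and 34.05 and 33.5 in DKO. Junb was at 440.3 and 251 CPM in control, against 165 and 156 in cKO, with 186 and 155 in SpiB KO and 139 and 128 in DKO. For both genes the 2 control libraries lay above the 6 others. Jun and Junb were the only members called in all 3 mutants. Jun was lower, at -1.20 ± 0.29 (adjusted p = 0.0414) in cKO, -1.03 ± 0.29 (adjusted p = 0.0766) in SpiB KO and -1.25 ± 0.29 (adjusted p = 0.0162) in DKO. Junb was lower, at -1.11 ± 0.21 (adjusted p = 0.0138), -1.01 ± 0.21 (adjusted p = 0.0221) and -1.36 ± 0.21 (adjusted p = 0.00201). Jund lay between 1089 and 1440 CPM and was called in no naive comparison.

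Egr1 was at 124 and 65.6 CPM in control, against 37.2 and 39.7 in cKO, with 70.4 and 65.8 in SpiB KO and 52.6 and 57.1 in DKO. It was lower in cKO, at -1.30 ± 0.23 (adjusted p = 0.0103), and in DKO, at -0.77 ± 0.23 (adjusted p = 0.0403), whereas in SpiB KO the value was -0.47 ± 0.22 (adjusted p = 0.287). Egr3 was at 101 and 78.1 CPM in control, against 56.5 and 44.5 in cKO, with 72.8 and 97.3 in SpiB KO and 51.7 and 57.9 in DKO, so that the libraries of the PU.1 mutants lay below those of control and of SpiB KO with no overlap. It was lower, at -0.83 ± 0.18 in cKO and -0.69 ± 0.18 in DKO, and lower in DKO than in SpiB KO, at -0.63 ± 0.18 (adjusted p = 0.146). Nr4a1 was at 72.04 and 58.5 CPM in control, against 27.6 and 45.6 in cKO, with 61.1 and 50.9 in SpiB KO and 42.1 and 34.4 in DKO and was lower, at -0.84 ± 0.23 (adjusted p = 0.057) in cKO and -0.76 ± 0.23 (adjusted p = 0.0425) in DKO. Egr2 was at 15.5 and 8.55 CPM in control, against 8.17 and 5.21 in cKO, with 13.9 and 14.3 in SpiB KO and 11.3 and 11.1 in DKO. It was lower in cKO, at -0.85 ± 0.29 (adjusted p = 0.117), and higher in DKO than in cKO, by 0.76 ± 0.29 (adjusted p = 0.148), and its value in DKO against control was -0.09 ± 0.28 (adjusted p = 0.850).

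Between the mutants, 1 member (Egr2) was called in DKO against cKO, where 12.9% of all genes were called, and 1 (Egr3) against SpiB KO, where 3.05% were called. The call of Egr3 was lost whichever of the 4 libraries was left out, and that of Egr2 without either DKO library or without library 2 of cKO. In the main edgeR fit no member was called for the interaction of both losses (0.936% of all genes). In that fit 3 had an unadjusted p under 0.05 (Jun, Junb and Egr1), and 1 was called by DESeq2 and 0 by voom. With the replicate number as a block, or with no filter on low counts, edgeR did call members for it, as given below.

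Control library 1 held the highest value of the 8 naive libraries for 8 of the 10 members, all but Jund and Fosl2, and for 13 of 29 other early response genes with a mean of at least 1 CPM. It also had the most counts on the ribosomal entry Rn45s of the naive libraries, 3.62% against 0.185% to 0.574%. Without it, 3 of the 7 members called in DKO kept the call, Jun at -0.70 (adjusted p = 0.0492), Junb at -0.95 (adjusted p = 0.00153) and Nr4a1 at -0.65 (adjusted p = 0.0971). Fos was then at -0.78 (adjusted p = 0.496), Egr1 at -0.29 (adjusted p = 0.142) and Egr3 at -0.54 (adjusted p = 0.0774). In cKO 5 members were called without it. Of the 4 libraries of each comparison, Fos kept its call in cKO and in DKO only when control library 2 was the one left out. Without library 2 of DKO 4 members were called in that mutant, and without library 1 or 2 of cKO 3 and 4 in that one. In SpiB KO Jun lost its call without control library 1, at -0.48 (adjusted p = 0.216). The 2 calls in that mutant became 1 without library 1 and 0 without library 2 of SpiB KO. At an adjusted p under 0.05, 5 members were called in DKO, 4 in cKO and 1 in SpiB KO.

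**Figure D3:**
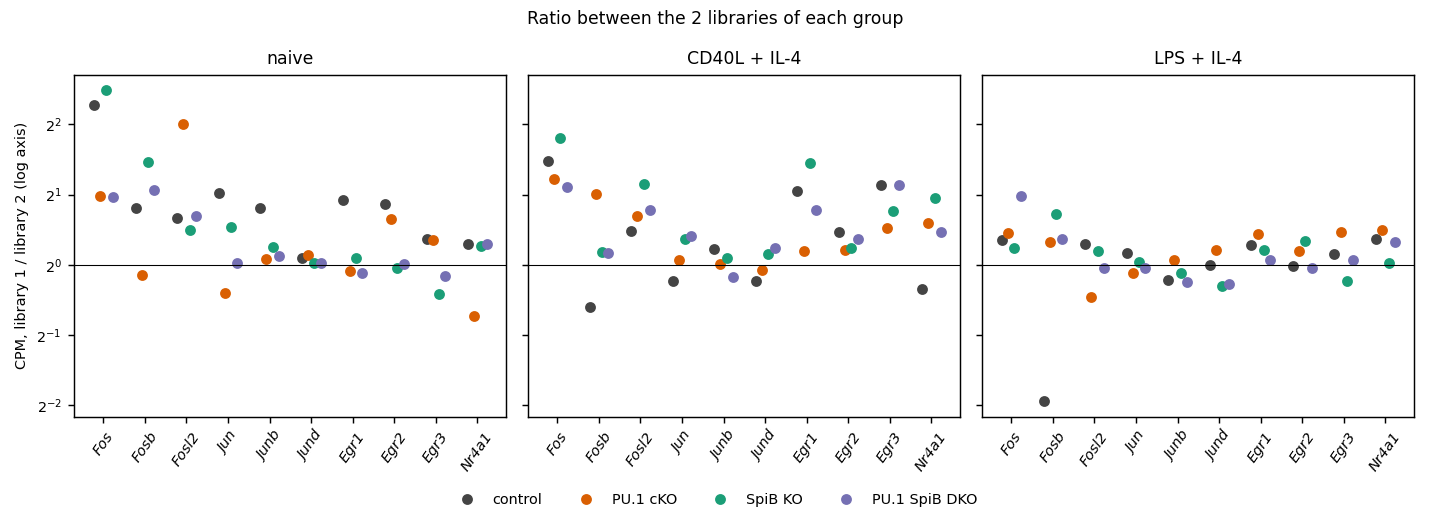
Ratio of the CPM in library 1 to that in library 2 of the same group (log2 axis) for each member, by stage, with 1 point per genotype. Fos lies above 1 in all 12 groups, by 1.18-fold to 5.62-fold, and the naive panel holds its highest ratios.

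Markers of other cells moved with some of these groups. The summed level of 10 plasmacytoid dendritic cell markers was 258 to 434 CPM in naive control, 344 to 396 in cKO, 2006 to 2568 in SpiB KO and 2729 to 3040 in DKO, and none of the 10 was at 0 in any naive library. That of 10 T cell markers was 81.8 to 138, 131 to 132, 441 to 522 and 641 to 642 CPM in the same order, and that of 10 macrophage and monocyte markers 14.9 to 27.3, 14.3 to 16.4, 55.8 to 68.7 and 77.0 to 77.8, with 1 to 3 of them at 0. In cKO, where 8 members fell, the sums of the dendritic cell and T cell lists lay within the control range. The sum of 10 B cell markers was 39078 to 42909 CPM in control, 31802 to 32273 in cKO, 34354 to 35802 in SpiB KO and 26011 to 26766 in DKO. The 6 neutrophil markers together stayed under 0.460 CPM. The sort gate described above was set on CD3, CD138 and B220 alone. The study also reports genes of these lineages as raised in naive B cells without SpiB, and proposes that SpiB represses them in B cells. Whether the marker counts came from other cells or from B cells was not tested. Their part in the values of the members was not tested either.

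In CD40L + IL-4 the calls against control were higher for the JUN genes and lower for Egr2 and Egr3. Among the JUN genes, Jun was at 75.5 and 88.5 CPM in control, against 239 and 227 in cKO, with 107 and 83.4 in SpiB KO and 265 and 200.02 in DKO. It rose by 1.48 ± 0.19 (adjusted p = 0.0008) in cKO and 1.496 ± 0.19 (adjusted p = 0.000547) in DKO. All 4 libraries of cKO and DKO lay above the 4 others, and Jun was also higher in DKO than in SpiB KO, by 1.30 ± 0.19 (adjusted p = 0.0019). Jund was at 1163 and 1373 CPM in control, against 1962 and 2071 in cKO, with 1684 and 1521 in SpiB KO and 2185 and 1853 in DKO, higher by 0.65 ± 0.16 (adjusted p = 0.0329) and 0.66 ± 0.16 (adjusted p = 0.0225) in the same mutants. Junb was at 98.9 and 84.4 CPM in control, against 124 and 123 in cKO, with 97.6 and 91.03 in SpiB KO and 131 and 148 in DKO and was higher in DKO, by 0.59 ± 0.15 (adjusted p = 0.0284).

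No EGR gene was called higher. Egr3 was at 28.7 and 13.02 CPM in control, against 11.8 and 8.22 in cKO, with 23.9 and 14.1 in SpiB KO and 10.2 and 4.67 in DKO, and the 4 libraries of cKO and DKO lay below the others. It fell by 1.12 ± 0.42 (adjusted p = 0.139) in cKO and by 1.52 ± 0.44 (adjusted p = 0.0459) in DKO, and was also lower in DKO than in SpiB KO, at -1.35 ± 0.44 (adjusted p = 0.0832). Egr2 was at 43.8 and 31.6 CPM in control, against 23.996 and 20.7 in cKO, with 60.6 and 51.3 in SpiB KO and 34.9 and 27.1 in DKO. It was lower in cKO than in control, at -0.79 ± 0.21 (adjusted p = 0.0396), and lower in DKO than in SpiB KO, at -0.85 ± 0.21 (adjusted p = 0.0264), and its value in DKO against control was -0.30 ± 0.21 (adjusted p = 0.377). Egr1 ranged from 16.01 to 45.3 CPM, Nr4a1 from 2.86 to 12.4, Fos from 0.937 to 5.11 and Fosl2 from 1.64 to 4.93 CPM, and none of these 4 was called. Fosb, at 0.147 to 0.512 CPM, did not pass the filter of 0.5 CPM in 2 libraries and was not tested, so 9 members were.

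In all, 4 of the 9 members tested were called in DKO against control (3 higher, 1 lower), where 18.3% of the 12721 genes tested were called, and 4 in cKO (2 higher, 2 lower), where 13.5% were called. Without control library 1 of this stage 2 and 1 members were called, without library 2 of DKO 2 in that mutant, and without library 2 of cKO, which at 61640683 counts was the deepest of the stage, 1 in that one. Jun kept its call in both mutants whichever library was left out. Jund and Egr2 lost theirs in cKO without control library 1, at 0.55 and -0.51, or library 2 of cKO, at 0.63 and -0.65. In DKO Jund lost its call without control library 1, at 0.56, or library 1 of DKO, at 0.54. Junb lost its call in DKO without control library 2, at 0.48, or library 2 of DKO, at 0.52. Egr3 lost its call in cKO without control library 1 or either library of cKO. In DKO Egr3 lost it without control library 1, at -0.82 (adjusted p = 0.375), and without library 2 of DKO, at -1.03 (adjusted p = 0.252). In DKO against SpiB KO 3 members were called (15.3% of all genes), and 1 without library 2 of DKO. Egr2 and Egr3 lost that call without library 2 of DKO and without library 1 of SpiB KO. In the main edgeR fit no member was called in SpiB KO against control (0.134% of all genes, 2 members with an unadjusted p under 0.05). The same held in DKO against cKO (4.06%, 1 member) and for the interaction (1.17%, 0 members). DESeq2 and voom also called 0 in these comparisons. With no filter on low counts edgeR called a member in SpiB KO and in DKO against cKO, as given below. The sum of 6 plasma cell markers was 1182 to 1389 CPM in control, 1139 to 1693 in SpiB KO, 1809 to 2045 in cKO and 2283 to 2535 in DKO, and its part in the changes was not tested. The cells had been sorted as negative for CD138, a surface protein of plasma cells, and for CD3. The sum of 10 T cell markers was 91.3 to 97.1 CPM in control, 119 to 135 in SpiB KO, 107 to 110 in cKO and 235 to 248 in DKO, with up to 4 of the 10 at 0. The sum of 10 B cell markers was 20700 to 27255 CPM in control and 21050 to 27247 in SpiB KO. It was 16168 to 16547 in cKO and 12268 to 14105 in DKO. That of 10 macrophage and monocyte markers was 42.9 to 58.3, 39.9 to 58.4, 9.06 to 10.2 and 8.68 to 11.6 in the same order. Up to 7 of these 10 were at 0. The part of the T cell, B cell and macrophage lists in the changes was not tested either. Rn45s took 6.64% of the counts of library 1 of DKO in this stage, against 0.416% to 1.86% in the others.

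**Figure D4:**
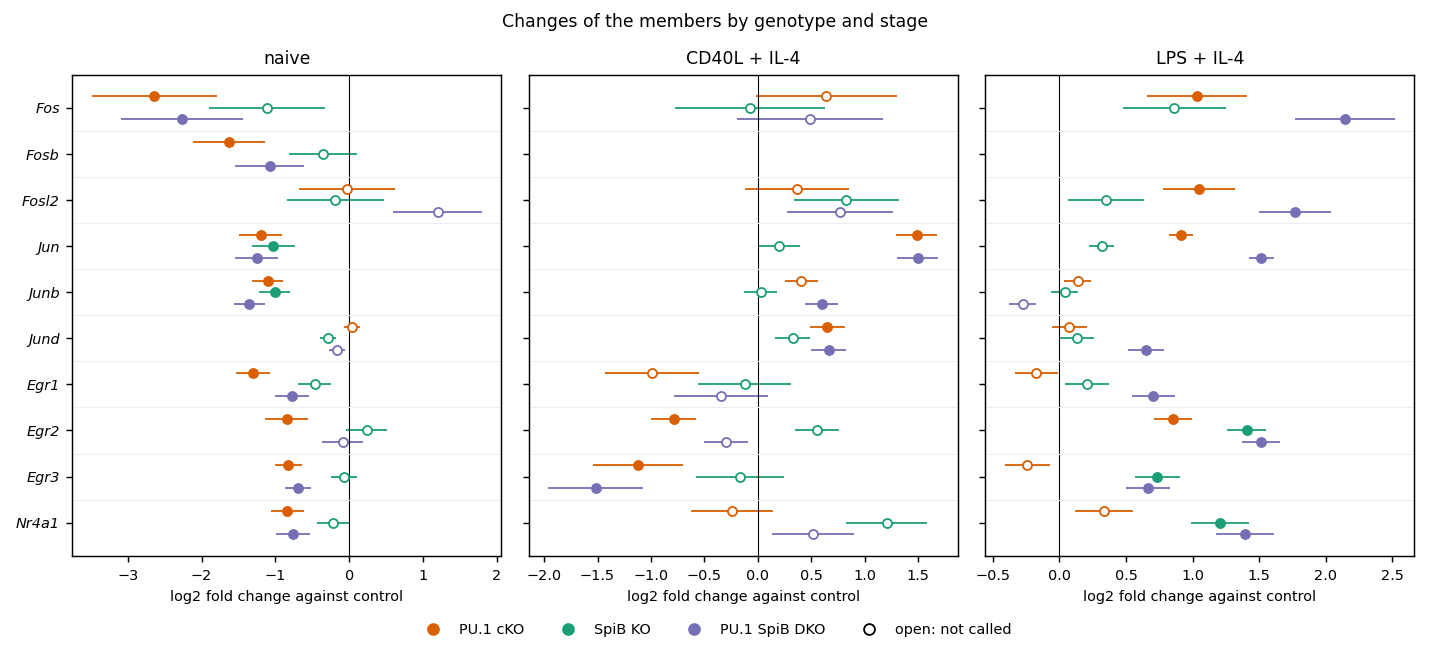
Log2 fold change of each member against control of the same stage (horizontal axis, a separate range in each panel), with the SE as bar. Filled points were called, open points were not, and the colour gives the mutant. Called points lie left of 0 in naive cells and right of 0 in LPS + IL-4, and on both sides in CD40L + IL-4.

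In LPS + IL-4 nearly all members tested were higher in DKO. In DKO cells 8 of the 9 members tested rose against control, where 20.2% of the 12445 genes tested were called and 13.7% were called higher. In cKO 4 rose (10.5% of all genes called) and in SpiB KO 3 (3.19%). The median log2 fold change of the members was 1.39, 0.33 and 0.35, and that of all genes tested 0.01, 0.00 and 0.00. Of the members called in the single mutants, Egr2 was shared by both, and the difference between the single mutants was not tested.

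Fos, Fosl2 and Jun were called in cKO but not in SpiB KO, and were higher in DKO than in either single mutant. Jun was at 44.3 and 39.3 CPM in control, against 74.3 and 80.8 in cKO, with 52.5 and 51.3 in SpiB KO and 112 and 115 in DKO, with no overlap between any 2 genotypes. It rose by 0.91 ± 0.09 (adjusted p = 0.00026) in cKO and 1.51 ± 0.09 (adjusted p = 6.99e-06) in DKO, and DKO was above cKO by 0.60 ± 0.09 (adjusted p = 0.00356) and above SpiB KO by 1.20 ± 0.09 (adjusted p = 6.25e-05). Its value in SpiB KO was 0.32 ± 0.09 (adjusted p = 0.140), short of the fold limit. Fos was at 0.995 and 0.782 CPM in control, against 2.00 and 1.46 in cKO, with 1.68 and 1.43 in SpiB KO and 4.81 and 2.43 in DKO, from 24 to 210 reads a library. It rose by 1.03 ± 0.38 (adjusted p = 0.127) in cKO and 2.14 ± 0.37 (adjusted p = 0.00239) in DKO, and its value in SpiB KO was 0.86 ± 0.39 (adjusted p = 0.381). Fosl2 was at 1.16 and 0.942 CPM in control, against 1.79 and 2.47 in cKO, with 1.38 and 1.21 in SpiB KO and 3.30 and 3.41 in DKO, from 28 to 144 reads. It rose by 1.05 ± 0.27 (adjusted p = 0.0343) in cKO and 1.77 ± 0.27 (adjusted p = 0.00114) in DKO. DKO was above cKO by 1.11 ± 0.34 for Fos and 0.72 ± 0.25 for Fosl2, and above SpiB KO by 1.28 ± 0.35 and 1.42 ± 0.26.

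Nr4a1, Egr2 and Egr3 were called in SpiB KO. Nr4a1 was at 4.52 and 3.50 CPM in control, against 5.71 and 4.04 in cKO, with 9.17 and 8.99 in SpiB KO and 10.98 and 8.77 in DKO, so that the 4 libraries without SpiB lay above the 4 others. It rose by 1.20 ± 0.22 (adjusted p = 0.0237) in SpiB KO and 1.39 ± 0.22 (adjusted p = 0.0013) in DKO, and its value in cKO was 0.33 ± 0.22 (adjusted p = 0.426). Egr3 was at 11.7 and 10.5 CPM in control, against 10.7 and 7.72 in cKO, with 16.97 and 19.98 in SpiB KO and 17.1 and 16.3 in DKO. Its libraries without SpiB again lay above the others, and it rose by 0.74 ± 0.17 (adjusted p = 0.0618) and 0.66 ± 0.17 (adjusted p = 0.0137), with -0.24 ± 0.17 (adjusted p = 0.459) in cKO. Egr2 was at 7.34 and 7.47 CPM in control, against 14.01 and 12.3 in cKO, with 21.7 and 17.2 in SpiB KO and 19.8 and 20.4 in DKO. It rose in all 3 mutants, by 0.85 ± 0.14 (adjusted p = 0.00419) in cKO, 1.40 ± 0.14 (adjusted p = 0.00171) in SpiB KO and 1.51 ± 0.14 (adjusted p = 6.96e-05) in DKO. Against SpiB KO the value of DKO was 0.19 ± 0.21 for Nr4a1, 0.11 ± 0.14 for Egr2 and -0.07 ± 0.16 for Egr3, none of them called.

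Egr1 and Jund were called in DKO alone among the mutants. Egr1 was at 21.6 and 17.8 CPM in control, against 19.6 and 14.5 in cKO, with 24.1 and 20.9 in SpiB KO and 31.1 and 29.6 in DKO and rose by 0.70 ± 0.16 (adjusted p = 0.00912). Jund was at 1203 and 1208 CPM in control, against 1343 and 1161 in cKO, with 1177 and 1454 in SpiB KO and 1622 and 1972 in DKO and rose by 0.65 ± 0.13 (adjusted p = 0.0054). Junb stood apart from the other members. It was at 224 and 260.5 CPM in control, against 268 and 257 in cKO, with 238 and 259 in SpiB KO and 174 and 207 in DKO. Both DKO libraries lay below all others, and the log2 fold change of -0.28 ± 0.10 (adjusted p = 0.061) was short of the fold limit.

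Against cKO 7 members were higher in DKO (12.6% of all genes called), namely Fos, Fosl2, Jun, Egr1, Egr2, Egr3 and Nr4a1, and against SpiB KO 3 (12.8%). In the main edgeR fit no member was called for the interaction (1.48% of all genes), and 4 had an unadjusted p under 0.05. DESeq2 called 1 and voom 0. With the replicate number as a block, which at this stage paired the libraries, 3 were called for the interaction, Egr1 at 0.69 (adjusted p = 0.0313), Junb at -0.46 (adjusted p = 0.0432) and Egr2 at -0.73 (adjusted p = 0.0451). In that blocked fit Junb and Egr2 lay below, and Egr1 above, the sum of the single mutant changes on the log2 scale. Without the block, edgeR gave adjusted p = 0.276 for Junb, 0.192 for Egr2 and 0.319 for Egr1. The labels do not say what a replicate number marks.

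Leaving out single libraries moved several of these counts. Without control library 2 of this stage 2 members were called in cKO and 1 in SpiB KO, and without library 2 of cKO 2 in that mutant, where Fos and Fosl2 lost their calls. Fos lost its call in cKO whichever of the 4 libraries was left out, and its call in DKO against SpiB KO without library 1 of DKO. In DKO against cKO, Fos lost its call without library 1 of DKO, at 0.52 (adjusted p = 0.398), or library 2 of cKO, at 0.93 (adjusted p = 0.233), and Fosl2 lost it without either library of DKO or library 1 of cKO. Jun fell short of the fold limit there without library 2 of DKO or library 1 of cKO, and Egr2 without library 2 of cKO. In DKO against control between 6 and 8 members were called whichever library was left out. When all 24 libraries were fitted together, 5 members were called in DKO, 2 in cKO and 3 in DKO against cKO. The level of Fos and Fosl2 was low, and with a limit of log2 RPKM above 0 added, 6 members were called in DKO, 2 in cKO and 1 in DKO against SpiB KO. Fosb, at 0.0415 to 0.234 CPM, was not tested. Plasma cell markers summed to 634 to 704 CPM in control, 724 to 784 in SpiB KO, 1145 to 1258 in cKO and 1504 to 1518 in DKO. The sum of 10 T cell markers was 49.6 to 57.4 CPM in control, 86.3 to 91.9 in SpiB KO, 114 to 120 in cKO and 159 to 174 in DKO, with up to 4 of the 10 at 0. The sort gate was negative for CD3 and CD138, and the part of both marker groups in the changes was not tested.

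Fos, Jun, Egr1, Egr3 and Nr4a1 were called lower in naive and higher in LPS + IL-4 DKO cells, and the difference between stages itself was tested in the fit of 24 libraries. The partial retention of the floxed Spi1 exon in naive DKO cells and the stage cannot be told apart in these differences. Against naive cells the change was higher in LPS + IL-4 for 8 of 10 members, where 29.6% of 13684 genes were called. Jun was lower in naive and higher in LPS + IL-4 mutant cells, a difference of 2.71 ± 0.34 (adjusted p = 2.82e-05). For Fos it was 4.37 ± 1.10 (adjusted p = 0.0104), for Nr4a1 2.09 ± 0.39 (adjusted p = 0.0011) and for Egr2 1.54 ± 0.33 (adjusted p = 0.00385). Between CD40L + IL-4 and naive cells 4 members were called, all higher (16.8% of all genes), with Jun at 2.78 ± 0.34 (adjusted p = 2.03e-05) and Junb at 1.98 ± 0.26 (adjusted p = 3.77e-05). Between LPS + IL-4 and CD40L + IL-4 3 were called (28.6%). The change was higher in LPS + IL-4 for Egr3, by 2.10 ± 0.48 (adjusted p = 0.00772), and Egr2, by 1.73 ± 0.32 (adjusted p = 0.00235). It was lower for Junb, at -0.95 ± 0.26 (adjusted p = 0.018). For Jun, which rose in both cultures, the difference was -0.06 ± 0.33 (adjusted p = 0.934). Without the naive control library 1, the difference between LPS + IL-4 and naive cells was 2.11 (adjusted p = 6.85e-05) for Jun, 2.83 (adjusted p = 0.0611) for Fos and 0.89 (adjusted p = 0.244) for Egr1. The control libraries of each stage enter these differences.

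Genes of other lists were read for the same comparison. Of 30 other early response genes, 29 were tested in naive cells, and 2 were called higher and 11 lower in DKO (21.2% of all genes called). Among the lower were Dusp1, a phosphatase of p38 and JNK, at -2.50 ± 0.70 (adjusted p = 0.0344), Ppp1r15a (Gadd34), at -1.84 ± 0.27 (adjusted p = 0.00152), and Klf6, at -1.46 ± 0.14 (adjusted p = 0.000151), while Gadd45b was higher, at 1.27 ± 0.18 (adjusted p = 0.00121). In LPS + IL-4 the split was 12 higher and 5 lower of 30 (20.2% of all genes called). The kinase Sgk1 was at 3.30 ± 0.31 (adjusted p = 6.24e-05), Trib1 at 2.21 ± 0.16 (adjusted p = 1.45e-05), Klf4 at 2.05 ± 0.38 (adjusted p = 0.00298) and Ier3 at -1.49 ± 0.33 (adjusted p = 0.0074). In CD40L + IL-4 it was 7 higher and 4 lower (18.3% of all genes called). Sgk1 was at 2.37 ± 0.26 (adjusted p = 0.0002), Trib1 at 2.37 ± 0.22 (adjusted p = 6.43e-05), Rhob at 1.40 ± 0.18 (adjusted p = 0.000519) and Bhlhe40 at -1.48 ± 0.28 (adjusted p = 0.00587). The median log2 fold change of the list was -0.45, 0.13 and 0.27 in naive cells, LPS + IL-4 and CD40L + IL-4. In the naive cells, as for the members, most calls were lower, and in both cultures more were higher than lower.

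Heat shock genes, which handling of cells can induce, were lower in 6 of 11 cases in naive DKO cells and higher in 0 (21.2% of all genes called). Their median log2 fold change was -0.67. In naive cKO cells, where 8 members were called lower, 0 of the 11 were called by edgeR (10.7% of all genes). Of the 11, 3 had an unadjusted p under 0.05 (Hspa1b below 0, Hspd1 and Bag3 above 0), and the median was -0.07. In naive DKO cells Hspa1a, with 206 and 39 reads in control and 5 and 0 in DKO, was at -5.84 ± 1.33 (adjusted p = 0.0142), Hspa1b at -4.86 ± 0.94 (adjusted p = 0.00646), Hspa8 at -0.98 ± 0.13 (adjusted p = 0.000689) and Hsph1 at -0.88 ± 0.27 (adjusted p = 0.0449). Hspa1a and Hspa1b are near-identical copies, and the split of reads between them is uncertain. In LPS + IL-4, where the members rose, 5 of 10 heat shock genes were lower and 0 higher (20.2% of all genes called). Hspa8 was at -0.90 ± 0.12 (adjusted p = 0.000408) and Hspd1 at -0.77 ± 0.13 (adjusted p = 0.00221). In CD40L + IL-4 2 of 12 were higher and 1 lower (18.3% of all genes called). The part of handling in the values of the members was not tested.

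Of 17 genes of the Ras, ERK, JNK and p38 relay that leads from receptors to these genes, 1 was higher and 1 lower in naive DKO cells, where 21.2% of all genes were called. In CD40L + IL-4 0 were higher and 3 lower (18.3% of all genes called), and in LPS + IL-4 0 and 1 (20.2%). Rasgrp3, an exchange factor for Ras in B cells, was at -1.13 ± 0.21 (adjusted p = 0.00561) in naive cells and -1.67 ± 0.18 (adjusted p = 0.000203) in CD40L + IL-4. At that stage Rasgrp1 was at -1.61 ± 0.33 (adjusted p = 0.0091) and Mapk3 (ERK1) at -0.62 ± 0.14 (adjusted p = 0.015). In naive cells Rps6ka1 (RSK1) was at 0.92 ± 0.11 (adjusted p = 0.000433), and in LPS + IL-4 Map2k1 (MEK1) was at -0.77 ± 0.07 (adjusted p = 5.75e-05). Of 14 factors that switch on immediate early genes, 3 were lower in naive cells, 4 lower in CD40L + IL-4, and 1 higher and 1 lower in LPS + IL-4. Crtc2, a coactivator of CREB, was lower at every stage, at -0.79 ± 0.11 (adjusted p = 0.00124), -1.03 ± 0.16 (adjusted p = 0.00165) and -0.74 ± 0.10 (adjusted p = 0.000659). Mef2c was lower in naive cells, at -0.97 ± 0.11 (adjusted p = 0.000409), and in CD40L + IL-4, at -0.68 ± 0.19 (adjusted p = 0.036). Crem, which encodes activators and repressors that bind the CRE, was higher in LPS + IL-4, at 0.94 ± 0.11 (adjusted p = 0.000225).

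Other bZIP factors, partners and rivals of AP-1, were called in both directions. In naive cells Maf was at 1.37 ± 0.30 (adjusted p = 0.0121) and Bach2, a repressor that holds B cells from becoming plasma cells, at -0.71 ± 0.14 (adjusted p = 0.00839). These were the 2 calls among 12 tested, where 21.2% of all genes were called. In CD40L + IL-4 4 of 13 were higher and 2 lower (18.3% of all genes called). Batf3, with 3 and 4 reads in control and 20 and 13 in DKO, was at 2.30 ± 0.76 (adjusted p = 0.0714), Jdp2 at 1.18 ± 0.38 (adjusted p = 0.0692), Batf at 0.94 ± 0.22 (adjusted p = 0.0156) and Bach2 at -0.96 ± 0.20 (adjusted p = 0.00908). In LPS + IL-4 2 of 14 were higher and 1 lower (20.2% of all genes called). Maf was at 3.30 ± 0.75 (adjusted p = 0.00851), Bach1 at 0.96 ± 0.18 (adjusted p = 0.00377) and Atf3, itself a stress-induced early gene, at -2.06 ± 0.20 (adjusted p = 9.18e-05). Among 3 to 4 relatives of EGR and NR4A and EGR co-repressors tested, Nr4a3 was lower in naive cells, at -1.15 ± 0.46 (adjusted p = 0.111). Nab1 was higher in CD40L + IL-4, at 0.81 ± 0.20 (adjusted p = 0.0214). Nr4a2 and Nab2 were higher in LPS + IL-4, at 1.89 ± 0.63 (adjusted p = 0.0443) and 0.90 ± 0.10 (adjusted p = 0.000138), and the control libraries held 2 and 5 reads of Nr4a2.

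**Figure D5:**
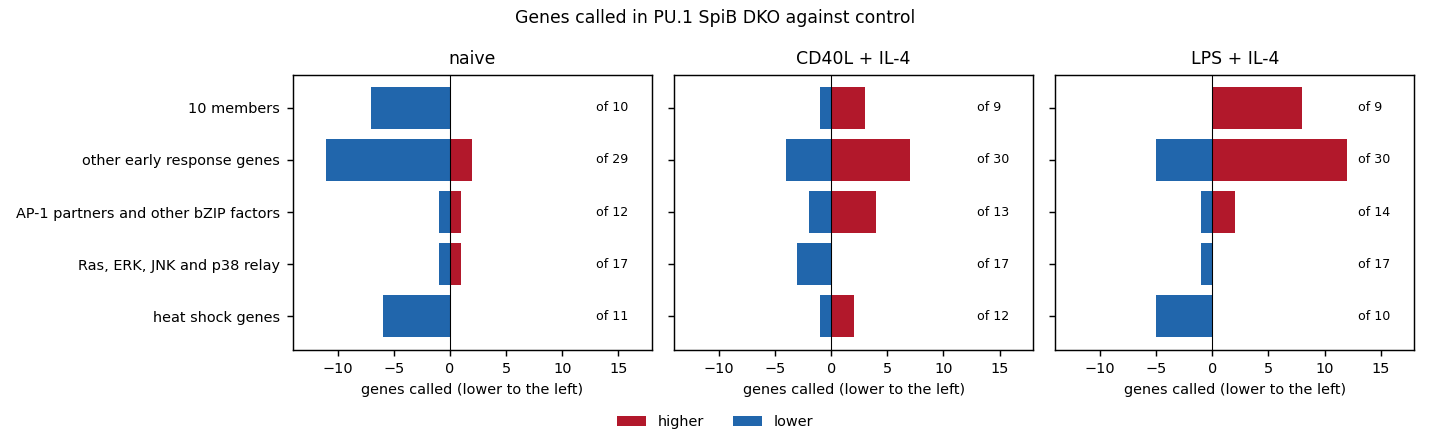
Number of genes called higher (right) and lower (left) in DKO against control at each stage, for the members and 4 other lists, with the number tested at the right. The members are lower in 7 of 10 cases in naive cells and higher in 8 of 9 in LPS + IL-4, and the relay has 1 to 3 calls at each stage.

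In control cells the same lists changed with culture as well. Of the 30 other early response genes, 7 were higher and 19 lower in CD40L + IL-4 than in naive cells, and 7 and 18 in LPS + IL-4, with a median log2 fold change of -1.35 and -1.47. In the same 2 comparisons 48.8% and 63.9% of all genes tested were called. Dusp1 was at -2.80 ± 0.54 (adjusted p = 0.000225) and -4.54 ± 0.57 (adjusted p = 7.9e-07). Ier3 had 0 reads in both naive control libraries, against 5 and 8 reads in CD40L + IL-4 and 35 and 76 in LPS + IL-4, so no fold is given. Pim1 was at 2.74 ± 0.12 (adjusted p = 7.93e-13) in CD40L + IL-4 and Sgk1 at -4.98 ± 0.28 (adjusted p = 1.29e-11) in LPS + IL-4. Of the bZIP factors, Batf was at 2.35 ± 0.19 (adjusted p = 4.32e-09) in CD40L + IL-4 and Atf3 at 5.29 ± 0.45 (adjusted p = 3.53e-09) in LPS + IL-4.

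Likeness was read as Pearson's r of log2(CPM + 0.5), centred within each stage, over the 24 libraries and among 9755 genes outside the members with a mean of at least 5 CPM, as a description. The 2 libraries of a group share their genotype, so r holds the effects of genotype as well. Nearest to Fos were Dusp1 (r = 0.872), Zfp36 (0.871), whose product degrades AU-rich mRNAs, and Man1a (0.754), and nearest to Fosb were Dusp1 (0.783), Kifc1 (0.766) and Gpr183 (0.742). Nearest to Jun were Rhob (0.937), Ighm (0.914) and Csrnp1 (0.909). Nearest to Junb were Rnf19b (0.792), Ppp1r15a (0.790) and Trim7 (0.772), and to Jund Cpm (0.860), 1110007C09Rik (0.854) and Pnpla2 (0.850). Nearest to Egr1 were Rgs2 (0.893), Hpgds (0.839) and Bcl6 (0.787), to Egr2 Plin3 (0.780), Cd2 (0.772) and Pea15a (0.766), and to Egr3 Tgfbr2 (0.913), Tulp4 (0.882) and Gpatch2l (0.876). Nearest to Nr4a1 were Sgms1 (0.843), Lactb (0.843) and Atp6ap1 (0.806), and to Fosl2, at a mean of 2.00 CPM, Tmub2 (0.771), Sorcs2 (0.763) and Prf1 (0.753).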

How the data were processed

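RNA-seq was measured in 24 libraries of B cells, 2 in each of 12 groups taken from the sample labels. Per the study's methods, the authors aligned reads to GRCm38/mm10 with Subread and counted uniquely mapped reads on RefSeq genes with featureCounts, and they deposited raw counts per gene. A log2 RPKM value per gene and library, quantile normalized, was deposited too, with naive and CD40L + IL-4 libraries in one set and LPS + IL-4 libraries in another. Versions are not given in the sources used here. Columns of the counts were matched to samples by name. The 517 entries without a symbol (0.162% of counts) were kept in library sizes and, where they passed the filter on low counts, in tests.

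Counts were tested with the quasi-likelihood test of edgeR 4.0.16 in R 4.3.3 after TMM scaling, over all genes with at least 0.5 CPM in 2 libraries of the fit, with Benjamini-Hochberg adjustment. The study's methods used voom in limma, which was run here as an alternative (limma 3.58.1), as was DESeq2 1.42.0. Genotypes were fitted within each stage (8 libraries), and stages and differences of effects over 24 libraries. Log2 RPKM values were used only to rank members within a stage and for a limit that is listed with the alternatives. The other alternatives were an adjusted p under 0.05, a limit on log2 RPKM, no filter, a replicate block, a fit of all libraries or of only the groups compared, and each library left out. The procedures were tested on simulated data. The correlation of deviations between libraries of the same replicate number was 0.398 to 0.521 in LPS + IL-4, which counts as pairing, 0.078 to 0.232 in naive cells and -0.070 to 0.254 in CD40L + IL-4, which do not. No pair of libraries agreed within sampling noise (chi-square per degree of freedom 10.2 or more). Every member was named, with values per library where it was called at that stage. From other lists at most 4 called genes per stage were named by the size of the change, and for likeness the 3 genes with the highest r. Counts of the whole gene body do not resolve isoforms or strand. The members, gene lists and motifs were chosen with earlier results of these data known.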

Additional observations from a re-analysis of the deposited data

Results flagged for a closer look

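The difference in the DKO change between stages passed the adjusted p of 0.15 (edgeR, 24 libraries) for 15 pairs of a member and a stage comparison. In CD40L + IL-4 against naive cells the log2 difference was 2.78 ± 0.34 for Jun (SE, adjusted p = 2.03e-05), 1.98 ± 0.26 for Junb (adjusted p = 3.77e-05), 0.84 ± 0.20 for Jund (adjusted p = 0.00837) and 1.30 ± 0.45 for Nr4a1 (adjusted p = 0.0788). In LPS + IL-4 against naive cells it was 4.37 ± 1.10 for Fos (adjusted p = 0.0104), 2.71 ± 0.34 for Jun (adjusted p = 2.82e-05), 1.02 ± 0.25 for Junb (adjusted p = 0.00944), 0.75 ± 0.20 for Jund (adjusted p = 0.0129), 1.42 ± 0.50 for Egr1 (adjusted p = 0.0595), 1.54 ± 0.33 for Egr2 (adjusted p = 0.00385), 1.30 ± 0.44 for Egr3 (adjusted p = 0.0479) and 2.09 ± 0.39 for Nr4a1 (adjusted p = 0.0011). In LPS + IL-4 against CD40L + IL-4 it was -0.95 ± 0.26 for Junb (adjusted p = 0.018), 1.73 ± 0.32 for Egr2 (adjusted p = 0.00235) and 2.10 ± 0.48 for Egr3 (adjusted p = 0.00772).

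Leaving out the naive control library 1, in which 8 of 10 members were highest, took the call from Egr1 (0.89, adjusted p = 0.244) in LPS + IL-4 against naive cells and from Nr4a1 (1.14, adjusted p = 0.163) in CD40L + IL-4 against naive cells. The call of Egr1 was also lost without naive DKO library 1 (adjusted p = 0.154), LPS + IL-4 DKO library 1 (adjusted p = 0.154) or LPS + IL-4 control library 2 (1.25, adjusted p = 0.220), and that of Egr3 without the last of these (1.18, adjusted p = 0.181). The call of Nr4a1 was also lost without naive DKO library 2 (1.16, adjusted p = 0.188), CD40L + IL-4 DKO library 1 (1.05, adjusted p = 0.255) or CD40L + IL-4 control library 1 (1.10, adjusted p = 0.243). Jun, Junb and Jund kept theirs in both comparisons whichever library was left out. The causes were not tested.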

How the results depend on the processing

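Of the recomputed counts of members called, 249 stayed within 1.5 times the main count and 54 did not. None of the 1126 values of members that were called changed sign, and 109 of 1752 values of members that were not called did. For counts that moved, the cause was not tested. At an adjusted p under 0.05 the counts were 4 for control LPS + IL-4 against CD40L + IL-4, and in naive cells 4 for cKO, 1 for SpiB KO and 0 for DKO against cKO and against SpiB KO. In the fit of all 24 libraries 3 were called in LPS + IL-4 DKO against cKO, 5 in DKO, 2 in cKO and 0 in naive DKO against SpiB KO. With log2 RPKM above 0 the count was 1 in LPS + IL-4 DKO against SpiB KO and 2 in cKO. With no filter on low counts it was 1 in CD40L + IL-4 DKO against cKO and 1 in SpiB KO, 4 for the LPS + IL-4 interaction, 6 for the difference between LPS + IL-4 and CD40L + IL-4, and in naive cells 2 and 3 for DKO against cKO and SpiB KO and 5 for the interaction. With only the groups compared, naive SpiB KO had 1. With voom, naive DKO against cKO and against SpiB KO had 0, and DESeq2 gave 1 for the naive and 1 for the LPS + IL-4 interaction.

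With the replicate block, the LPS + IL-4 interaction had 3 calls and the difference between LPS + IL-4 and CD40L + IL-4 had 5. In naive cells DKO against cKO had 2, against SpiB KO 2 and the interaction 3. There the correlations by replicate number were all positive, at 0.078 to 0.232, but too low to count as pairing. The block moved no other count by over 1.5 times.

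Leaving out 1 library at a time, the counts ranged in naive cells from 3 to 8 for cKO, 0 to 3 for SpiB KO, 3 to 7 for DKO, 0 to 2 and 0 to 0 for DKO against cKO and SpiB KO, and 0 to 3 for the interaction. In CD40L + IL-4 they ranged from 1 to 5 for cKO, 2 to 3 for DKO and 1 to 4 for DKO against SpiB KO. In LPS + IL-4 they ranged from 2 to 3 for cKO, 1 to 3 for SpiB KO and 0 to 3 for the interaction, where 3 came without control library 2. For control LPS + IL-4 against CD40L + IL-4 they ranged from 3 to 6. The value of Egr2 in naive DKO ranged from -0.43 to 0.36 and was positive without control library 1. Depth limits Fosb in both cultures, at 1 to 18 reads a library, and 2 libraries a group limit every test.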

Other observations

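Fos was higher in library 1 than in library 2 in all 12 groups, with a ratio of 1.95 to 5.62 in naive cells, 2.15 to 3.51 in CD40L + IL-4 and 1.18 to 1.98 in LPS + IL-4. Jund, the most abundant member per length, had ratios of 0.81 to 1.18 over the same groups and was higher in library 1 in 7 of the 12.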
